A study of Homo sapiens with 8 samples.

Results

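The citric acid cycle enzymes described here are CS, IDH2, IDH3A, IDH3B, OGDH, DLST, SUCLG1, FH and MDH2, the 9 genes of this pathway taken by gene symbol from the 17912 genes listed. The rule used symbols and no measured value, but the members and the lists below were chosen with earlier results of these data known. All 9 passed the filter of a mean signal of at least 1, as did 15542 genes in all. The study, per its title, concerns the anti-leukemic activity of an inhibitor of UHM splicing factors, proteins that help to define where introns are cut. NKM-1, an established human leukemia line that the labels call myeloid and wildtype, was given 30 uM SF153 for 48 h in 4 libraries, and DMSO, the solvent, for the same 48 h in the other 4. Each treatment had 2 libraries in each of 2 labelled batches, and the library name 2.1, for example, gives the batch before the point and the library after it. RNA was sequenced after removal of ribosomal RNA, and the deposited values are a TPM-type signal per gene. The labels do not state whether the 2 libraries of a treatment and batch came from separate cultures, so every p-value here measures a spread between libraries that may be technical.

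The cycle runs in the mitochondrial matrix. It takes up the acetyl group of acetyl-CoA, releases it as carbon dioxide and passes the electrons to the respiratory chain, while its intermediates leave for amino acid, lipid and heme synthesis. Several of these genes are known in leukemia and other tumors: mutant IDH2 makes 2-hydroxyglutarate, and FH is a tumor suppressor of the kidney.

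The libraries differed in what filled them. Mitochondrially encoded genes made up 16.8% of the signal in SF153 2.1 and in SF153 2.2, while the other 6 libraries ranged from 9.17% to 9.92%. The nuclear small RNA RN7SK made up 18.7% in SF153 1.1 and 18.2% in SF153 1.2, while the other 6 ranged from 11.4% to 13.9%. A TPM-type value depends on the rest of its library, so the members are also given below under scalings that leave such genes out. Of 12 myeloid marker genes 10 were analysed, of which 6 were called lower, beside 24.3% of all tested genes, and 2 higher, beside 13%. Their summed signal was 1175 to 1439 in SF153 libraries and 1649 to 1848 in DMSO libraries, with the granule genes MPO (63.4% of DMSO) and LYZ (50.8%) among those that fell. The surface markers CD33 (133% of DMSO, limma adjusted p = 0.0063) and ITGAM (134%, adjusted p = 0.0182) rose. The surface receptor CSF1R fell (71.1%, limma adjusted p = 0.0023), as did TYROBP (41.4%) and FCER1G (46.9%). The granule gene AZU1 was at 108% and did not pass (limma adjusted p = 0.317), so neither granule genes nor surface markers moved alike. Of the B lymphoid markers CD79A and PAX5, which summed to 5.83 to 13.5 in SF153 libraries and 25.9 to 32.4 in DMSO libraries, CD79A was at 24.8% of DMSO and fell, and PAX5 was at 157% and did not pass. The T lymphoid, erythroid, epithelial and fibroblast markers were not analysed here. In bulk RNA, fewer cells of a type and less RNA per cell cannot be told apart.

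After SF153, mRNA of IDH2, MDH2, SUCLG1, FH, IDH3A and DLST fell, no member rose, and CS, OGDH and IDH3B did not pass the test. The sizes ran from IDH2, at 22.9% of its DMSO mean, through MDH2 at 40.7%, SUCLG1 at 47.0% and FH at 56.3%, to IDH3A at 70.9% and DLST at 84.6%. The 6 of 9 members called lower stand beside 24.3% of all tested genes, and the 0 called higher beside 13% (limma on log2(signal + 1), Benjamini-Hochberg adjusted p below 0.05). At an unadjusted p below 0.05, 7 members were lower and 0 higher. The share of all tested genes at that threshold is not given here, so these counts stand without a comparison. All 4 SF153 libraries lay below all 4 DMSO libraries in 6 members (CS, IDH2, DLST, SUCLG1, FH and MDH2), which was so for 23.6% of all tested genes. The median difference of the members was -0.48 and that of all tested genes -0.03, both as log2 of SF153 over DMSO.

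**Figure D1:**
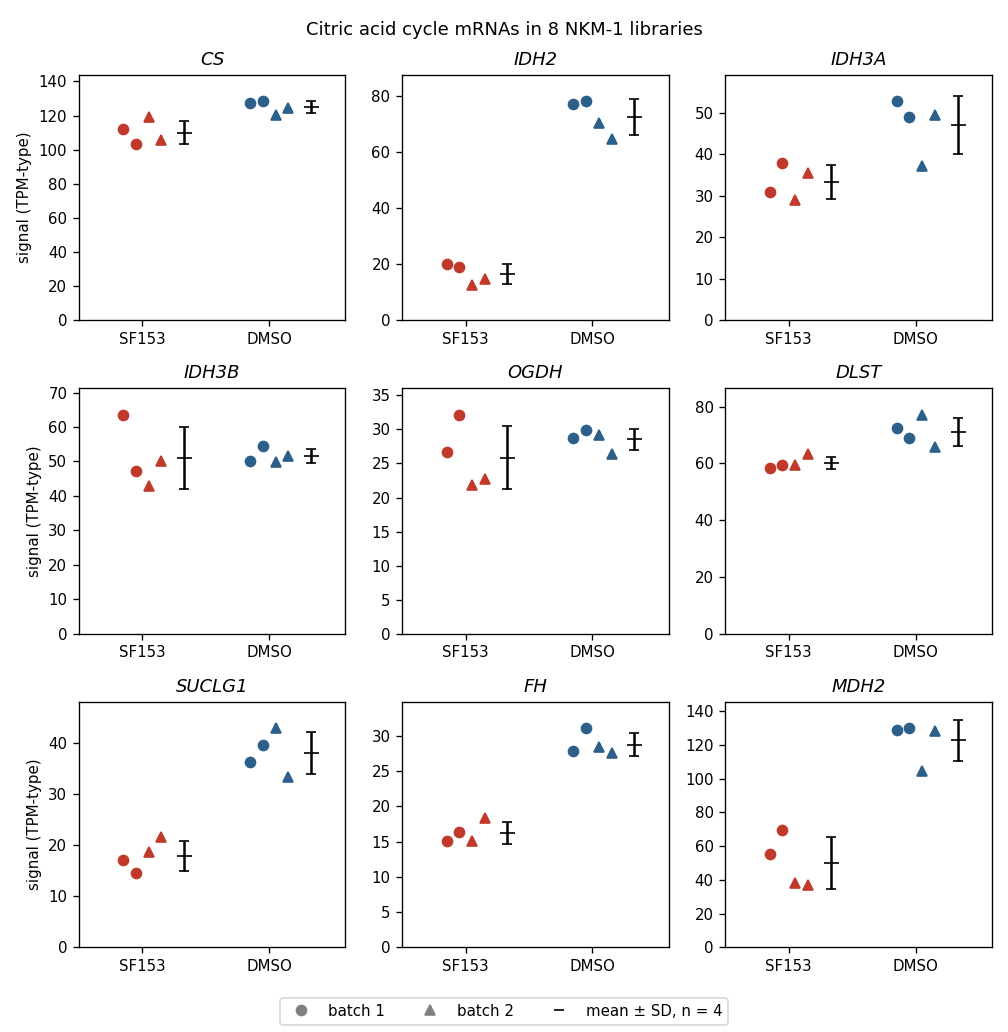
Signal (TPM-type, linear axis) of each of the 9 members, with the 4 SF153 libraries left of the 4 DMSO libraries, points marking single libraries by batch and bars the mean and SD. The groups are widely apart in IDH2 (mean 16.6 with SF153 against 72.4 with DMSO) and overlap in IDH3B (mean 51.0 with SF153 against 51.5 with DMSO).

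CS, citrate synthase, opens the cycle by joining acetyl-CoA to oxaloacetate. Its signal was 111.95, 103.55, 118.99 and 105.67 in SF153 libraries 1.1, 1.2, 2.1 and 2.2, against 127.27, 128.44, 120.54 and 124.43 in DMSO libraries 1.1, 1.2, 2.1 and 2.2. The groups did not overlap, but SF153 2.1 came close to DMSO 2.1. The difference of -0.19 ± 0.07 (log2, SE) had a limma adjusted p of 0.0525 and did not pass. It passed with the batch as a replicate block (adjusted p = 0.049), without SF153 2.1 (adjusted p = 0.0332), with no filter on low values (0.0443) and with a mean signal of at least 5 (0.0441). After averaging the libraries of a treatment and batch its adjusted p was 0.227, over a range of 0.0332 to 0.952 for all alternatives, and its sign turned to positive under 3 of the scalings given further on.

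IDH2 makes 2-oxoglutarate from isocitrate with NADP. Its signal was 20.2, 18.9, 12.7 and 14.7 in SF153 libraries, against 77.0, 78.0, 70.3 and 64.4 in DMSO libraries, each in the order 1.1, 1.2, 2.1, 2.2. Every SF153 library was far below the lowest DMSO library. IDH2 fell by 2.08 ± 0.14 on the log2 scale (limma adjusted p = 1.93e-05), and of all tested genes 95, or 0.611%, had a more negative difference. Within batches the difference was -1.94 in batch 1 and -2.22 in batch 2.

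IDH3A and IDH3B are the catalytic alpha and the beta subunit of the NAD-dependent isocitrate dehydrogenase, the allosterically controlled enzyme of the same step. IDH3A had 31.0, 38.0, 29.05 and 35.5 in SF153 libraries, against 52.8, 48.9, 37.1 and 49.5 in DMSO libraries. The highest SF153 library (1.2) lay just above the lowest DMSO library (2.1), so the groups overlapped. IDH3A fell by 0.48 ± 0.13 (log2; limma adjusted p = 0.0146), a call that was lost when RN7SK was removed (-0.31, adjusted p = 0.0903), after quantile normalization (-0.29, adjusted p = 0.0915), without mitochondrial and small RNA genes (-0.15, adjusted p = 0.339) and in batch 2 alone (adjusted p = 0.182), over a range of 0.0036 to 0.339 for all alternatives.

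IDH3B had 63.6, 47.3, 43.0 and 50.1 in SF153 libraries, against 50.2, 54.4, 49.8 and 51.6 in DMSO libraries. SF153 libraries lay on both sides of the DMSO libraries, with SF153 1.1 the highest of all 8. The difference was -0.03 ± 0.11 (log2; limma adjusted p = 0.867). Its sign was positive under each of the 5 other scalings, and IDH3B was called higher in the one without mitochondrial and small RNA genes (0.31, adjusted p = 0.0316, within a range of 0.0316 to 0.992 over all alternatives).

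OGDH and DLST encode the E1 and E2 subunits of the 2-oxoglutarate dehydrogenase complex, E1 decarboxylating 2-oxoglutarate and the lipoylated E2 handing on the succinyl group. OGDH had 26.7, 32.2, 21.9 and 22.7 in SF153 libraries, against 28.8, 29.9, 29.2 and 26.4 in DMSO libraries. SF153 1.2 was the highest library of all 8, and both SF153 libraries of batch 2 were below every DMSO library. The difference was -0.15 ± 0.12 (log2; limma adjusted p = 0.36), with -0.00 in batch 1 and -0.30 in batch 2, and its sign turned to positive under 3 scalings.

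DLST had 58.4, 59.3, 59.4 and 63.3 in SF153 libraries, against 72.3, 68.8, 77.2 and 65.8 in DMSO libraries. The SF153 libraries lay close together and all below the lowest DMSO library. DLST fell by 0.24 ± 0.07 (log2; limma adjusted p = 0.0272). The call was lost under all 5 other scalings, among them the one without mitochondrial and small RNA genes, where the sign was positive (0.10), and also without SF153 1.1, 1.2 or 2.1 or DMSO 1.1 or 2.1 (adjusted p up to 0.0687), in either batch alone, without an intensity trend in the variance and after averaging the libraries of a treatment and batch (adjusted p = 0.131, within a range of 0.0219 to 0.632 over all alternatives).

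SUCLG1, the alpha subunit shared by both succinyl-CoA synthetases, had 17.0, 14.6, 18.6 and 21.6 in SF153 libraries, against 36.5, 39.7, 43.0 and 33.5 in DMSO libraries. The highest SF153 library was well below the lowest DMSO library. SUCLG1 fell by 1.05 ± 0.13 (log2; limma adjusted p = 0.000206), with -1.22 in batch 1 and -0.89 in batch 2.

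FH, fumarase, hydrates fumarate to malate. Its signal was 15.0, 16.3, 15.1 and 18.3 in SF153 libraries, against 27.9, 31.1, 28.5 and 27.6 in DMSO libraries. Both groups were tight and did not overlap. FH fell by 0.79 ± 0.09 (log2; limma adjusted p = 0.000164), with -0.87 in batch 1 and -0.72 in batch 2.

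MDH2, the mitochondrial malate dehydrogenase, closes the cycle by restoring oxaloacetate. Its signal was 55.2, 69.6, 38.2 and 37.1 in SF153 libraries, against 129, 130.0, 105 and 128 in DMSO libraries. The groups did not overlap, and within SF153 the libraries of batch 2 were below those of batch 1. MDH2 fell by 1.32 ± 0.19 (log2; limma adjusted p = 0.000542), to 48.3% of DMSO in batch 1 and 32.4% in batch 2. The difference between the batches, -0.55 on the log2 scale, had an unadjusted p of 0.0192 and a limma adjusted p of 0.35. No member was called for that interaction, MDH2 was the single member at an unadjusted p below 0.05, and 1.15% of all tested genes were called.

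The promoters of MDH2, IDH3B and DLST are shown because they hold the letters CCGGAAGT, the core that ETS factors such as GABPA bind, in members with very different outcomes (MDH2 at 40.7%, DLST at 84.6% and IDH3B at 99.0% of the DMSO mean). The sequences are from RefSeq, build GRCh38.p14, 250 bases before to 50 after the start of each gene, 5′ to 3′ on the gene's strand, with the letters of the motif, on either strand, in capitals.
MDH2 (chr7:76047856-76048155, plus strand): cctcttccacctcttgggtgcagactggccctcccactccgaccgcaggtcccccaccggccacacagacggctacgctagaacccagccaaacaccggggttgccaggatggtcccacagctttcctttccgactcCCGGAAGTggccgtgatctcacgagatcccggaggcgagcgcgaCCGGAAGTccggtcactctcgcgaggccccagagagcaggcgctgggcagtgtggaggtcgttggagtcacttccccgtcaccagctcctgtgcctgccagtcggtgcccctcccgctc
IDH3B (chr20:2664167-2664466, minus strand): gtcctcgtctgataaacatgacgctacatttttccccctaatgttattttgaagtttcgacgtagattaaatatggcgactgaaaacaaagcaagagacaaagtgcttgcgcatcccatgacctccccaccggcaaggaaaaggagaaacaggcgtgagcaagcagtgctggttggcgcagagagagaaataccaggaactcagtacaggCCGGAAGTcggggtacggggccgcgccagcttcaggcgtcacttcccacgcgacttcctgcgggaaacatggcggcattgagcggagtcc
DLST (chr14:74881666-74881965, plus strand): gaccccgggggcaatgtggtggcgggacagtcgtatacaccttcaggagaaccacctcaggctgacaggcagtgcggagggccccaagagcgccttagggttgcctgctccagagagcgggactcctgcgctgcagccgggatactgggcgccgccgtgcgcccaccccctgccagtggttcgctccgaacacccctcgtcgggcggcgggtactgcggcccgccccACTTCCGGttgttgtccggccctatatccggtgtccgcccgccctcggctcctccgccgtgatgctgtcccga
MDH2 held the letters at 2 places, from -113 to -106 and from -69 to -62 relative to the gene's start, IDH3B from -40 to -33, and DLST on the opposite strand from -23 to -16. The table held a promoter for 8 of the 9 members, and 3 of these 8 held CCGGAAGT, against 9.56% of 9656 promoters of tested genes and 4.44% of all 27305 promoters searched. The other motifs searched on both strands were an NRF1 core (GCATGCGC), ERR (TCAAGGTCA), the E-box (CACGTG), SP1 (GGGCGG) and NFY (CCAAT). The first 3 of these were in 0 members, and in 5.85%, 0.186% and 10.4% of the promoters of tested genes. GGGCGG was in 4 members and in 69.1% of tested promoters, and CCAAT in 3 members and in 37.6%. A match is a description of letters, not of a bound site. The RefSeq start of IDH2 lies 1883 bases, of SUCLG1 765 bases and of IDH3A 17864 bases from the start of the gene in GENCODE release 29, so these windows can belong to another transcript. mRNA of GABPA, the ETS factor named above, fell to 6.24 ± 0.642 in SF153 libraries, against 10.3 ± 0.845 in DMSO libraries (SD, n = 4 each). Its difference was -0.64 on the log2 scale (limma adjusted p = 0.00202). NRF1 (85.7% of DMSO, limma adjusted p = 0.466) and the ERR factor ESRRA (91.5%, adjusted p = 0.255), whose motifs were also searched, did not pass. Whether any of these factors acts on the members was not tested.

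The rank of the members within a library changed with treatment. The file labels call the signal both CPM and TPM, so whether it is per transcript length is not settled. Ranks, orders and shares of different genes below hold on this scale only. IDH2 ranked 7, 7, 9 and 9 of the 9 members in SF153 libraries, against 3, 3, 4 and 4 in DMSO libraries. MDH2 ranked 4, 2, 4 and 4 in SF153 libraries, against 1, 1, 2 and 1 in DMSO libraries. By mean level the SF153 order was CS, DLST, IDH3B, MDH2, IDH3A, OGDH, SUCLG1, IDH2 and FH, where of neighbours in the order CS and DLST, and OGDH and SUCLG1, did not overlap. The DMSO order was CS, MDH2, IDH2, DLST, IDH3B, IDH3A, SUCLG1, FH and OGDH, where MDH2 and IDH2, DLST and IDH3B, and SUCLG1 and FH did not overlap.

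The summed signal of the 9 members was 381 ± 21.6 in SF153 libraries and 586 ± 23.5 in DMSO libraries (SD, n = 4 each), or 0.0415 ± 0.00247% of the library's signal with SF153 and 0.0582 ± 0.00318% with DMSO. Within that sum CS took 28.98% in SF153 libraries and 21.4% in DMSO libraries, and IDH3B 13.4% with SF153 and 8.80% with DMSO. MDH2 took 13.0% in SF153 libraries and 20.9% in DMSO libraries, and IDH2 4.33 ± 0.684% with SF153 and 12.4 ± 0.731% with DMSO.

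IDH2, MDH2, SUCLG1 and FH were called lower in every setting run, which covers the 5 other scalings, each left-out library and each batch alone. The scalings moved the median difference of all tested genes from -0.03 as deposited to 0.04 with median-of-ratios factors, 0.06 after quantile normalization, 0.12 without RN7SK, 0.02 after removal of a trend on length and level, and 0.26 with mitochondrial and small RNA genes left out. The members called lower were then 5 with median-of-ratios factors (20.9% of all tested genes), 4 after quantile normalization (18.2%), 4 without RN7SK (17.5%), 5 after trend removal (19.6%) and 4 without mitochondrial and small RNA genes, a setting with 13.8% of tested genes lower and 35% higher. They were 5 after averaging the libraries of a treatment and batch (16.2%) and 7 with the replicate block (24.9%). Taken relative to that median over the 6 scalings, the difference was -2.04 to -1.94 for IDH2 and -1.29 to -1.17 for MDH2. It was -1.02 to -0.78 for SUCLG1, -0.76 to -0.56 for FH and -0.45 to -0.36 for IDH3A. The other members were near the median of all genes: DLST at -0.20 to -0.12, OGDH at -0.12 to -0.01, CS at -0.15 to 0.03 and IDH3B at 0.01 to 0.22. Whether the shares of mitochondrially encoded genes or RN7SK have a part in the differences was not tested beyond these scalings.

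**Figure D2:**
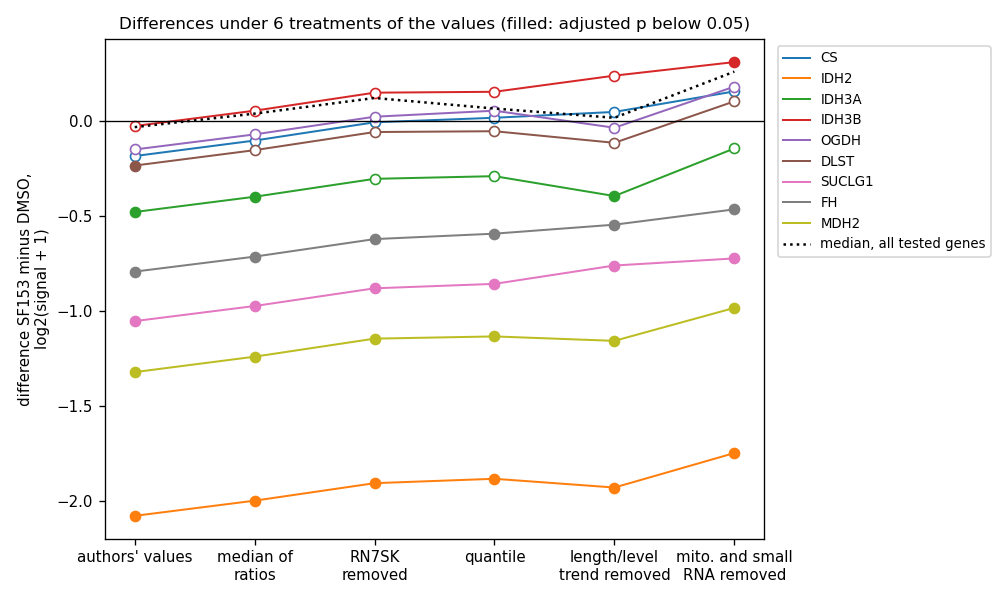
Log2 difference (SF153 over DMSO) of each member under the 6 scalings, with filled points for adjusted p below 0.05 and open points above. IDH2, MDH2, SUCLG1 and FH are filled under all 6, the points of CS, OGDH, IDH3B and DLST cross 0, and the dotted line is the median of all tested genes.

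The 10 other cycle subunits were all called lower, beside 24.3% of all tested genes, and 0 were higher (median difference -0.60). SDHD, a membrane anchor of succinate dehydrogenase, had 20.8 ± 4.59 in SF153 libraries and 61.4 ± 8.49 in DMSO libraries (SD, n = 4 each; -1.53, limma adjusted p = 8.98e-05). SDHB, its iron-sulfur subunit, had 18.8 ± 3.92 in SF153 libraries and 40.5 ± 4.30 in DMSO libraries, and SDHC, the other anchor, 21.9 ± 4.22 with SF153 and 38.3 ± 5.57 with DMSO. The complex hands electrons from succinate to the respiratory chain. SDHA, its flavoprotein, fell by 0.58. MRPS36, which ties the E3 subunit into the 2-oxoglutarate dehydrogenase complex, had 3.78 ± 1.56 in SF153 libraries and 9.92 ± 1.10 in DMSO libraries (-1.24, limma adjusted p = 0.00184). DLD, IDH3G, SUCLA2 and SUCLG2 fell by 0.37 to 0.61, with the groups overlapping in SUCLA2. The calls of IDH3G and SUCLA2 were lost after quantile normalization, trend removal and RN7SK removal, and in batch 2 alone. They were also lost without mitochondrial and small RNA genes (limma adjusted p = 0.785 and 0.335), and that of IDH3G on averaging. DLD lost its call after quantile normalization (0.0509), without mitochondrial and small RNA genes (0.267), on averaging and in batch 1 alone. SUCLG2 lost it in batch 1 alone. The count of 10 was 6 without mitochondrial and small RNA genes, 7 after quantile normalization, after averaging the libraries of a treatment and batch and in each batch alone, and 8 without RN7SK and after removal of the trend. Members and other subunits together gave 16 of 19 lower and 0 higher.

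**Figure D3:**
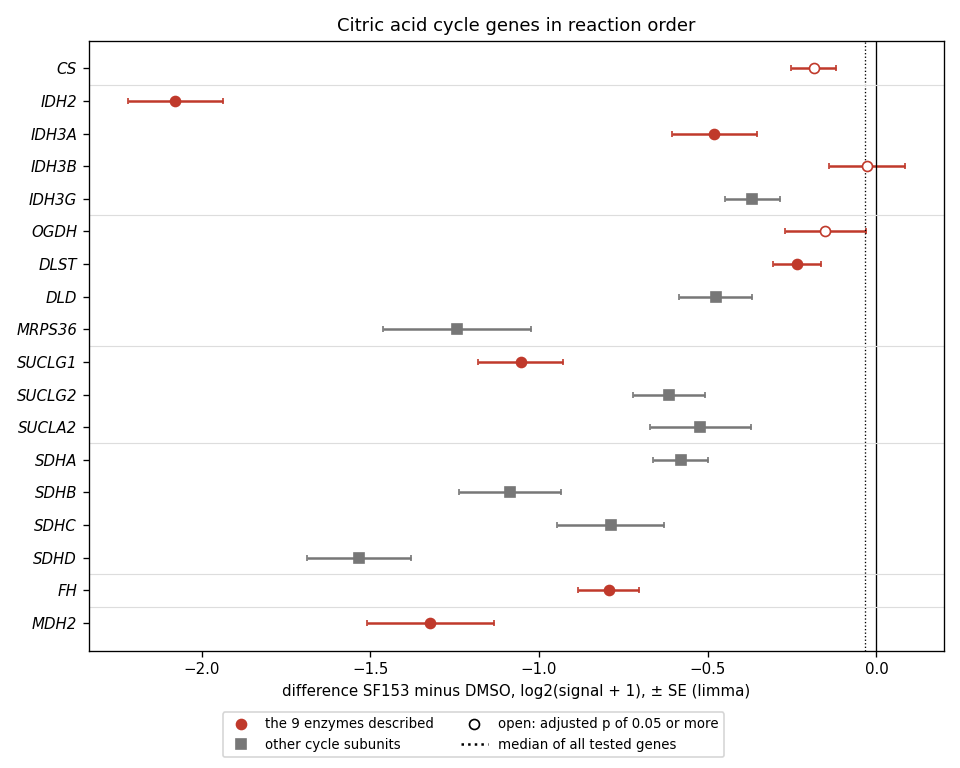
Log2 difference (SF153 over DMSO, limma, bars ± SE) of 18 cycle genes in the order of the reactions (members red, other subunits grey, open points not called), from citrate synthase to malate dehydrogenase. IDH2, SDHD and MDH2 reach -2.08, -1.53 and -1.32, while CS, IDH3B and OGDH lie between -0.19 and -0.03.

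Pyruvate entry, the pyruvate dehydrogenase complex with its carrier and regulators, had 4 of 12 genes lower, beside 24.3% of all tested genes, and 0 higher, beside 13% (median -0.21). PDHB, the E1 beta subunit, had 11.2 ± 1.08 in SF153 libraries and 24.3 ± 2.10 in DMSO libraries (-1.06, limma adjusted p = 7.66e-05), and DLAT, the E2, 12.2 ± 1.79 with SF153 and 24.9 ± 1.65 with DMSO. The pyruvate carrier subunits MPC1 and MPC2 fell by 0.55 and 0.86, with the groups overlapping in MPC1. The call of MPC1 was lost under 4 of the 5 other scalings (all but median-of-ratios factors), and that of each was lost on averaging the libraries of a treatment and batch (adjusted p = 0.0548 for MPC1 and 0.0605 for MPC2). PDHA1, the E1 alpha subunit and partner of PDHB, was picked after its values were seen: it had 54.1 ± 6.30 in SF153 libraries and 54.6 ± 2.75 in DMSO libraries (adjusted p = 0.898).

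Of 5 cytosolic counterparts, 1 was higher, beside 13% of all tested genes, and 2 were lower, beside 24.3%. IDH1, the cytosolic enzyme that does the reaction of IDH2, rose to 71.6 ± 4.80 in SF153 libraries, against 56.6 ± 4.93 in DMSO libraries (0.34 ± 0.08, limma adjusted p = 0.0108), with no overlap. The call was lost on averaging the libraries of a treatment and batch (adjusted p = 0.0672) and in each batch alone, over a range of 0.000183 to 0.122 for all alternatives. MDH1, the cytosolic malate dehydrogenase, fell to 78.8 ± 7.70 in SF153 libraries, against 139 ± 7.82 in DMSO libraries (-0.81, limma adjusted p = 0.000101). GOT1, the cytosolic aspartate transaminase, fell by 0.64 with overlapping groups, a call lost without mitochondrial and small RNA genes (adjusted p = 0.134), with RN7SK removed (0.0571), on averaging (0.0617) and in each batch alone, over a range of 0.0109 to 0.157 for all alternatives. ACLY, which splits exported citrate, differed by -0.12 (adjusted p = 0.582), with a positive sign under 3 scalings.

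Among 10 genes of side reactions 3 were lower, beside 24.3% of all tested genes, and 0 higher, beside 13%. At an unadjusted p below 0.05, 4 were lower and 1 higher, with no share of all tested genes given at that threshold. GOT2, the mitochondrial aspartate transaminase, fell by 1.07, GLUD1, glutamate dehydrogenase, by 0.91, and ME2, a malic enzyme, by 0.55. The call of ME2 was lost without mitochondrial and small RNA genes (limma adjusted p = 0.124) and in batch 2 alone (0.063). Of 5 carriers 1 was higher, beside 13% of all tested genes, and 1 was lower, beside 24.3%. SLC25A13, an aspartate-glutamate carrier, rose by 0.45 (limma adjusted p = 0.0177) and SLC25A1, the citrate carrier, fell by 0.57 (adjusted p = 0.0274). Both calls were lost on averaging (adjusted p = 0.0546 for SLC25A13 and 0.0797 for SLC25A1) and in each batch alone, and that of SLC25A1 also under 4 of the 5 other scalings (adjusted p up to 0.219). Of 6 cofactor and assembly genes 2 were lower, beside 24.3% of all tested genes, and 0 higher, beside 13%. These were the succinate dehydrogenase assembly factors SDHAF3 and SDHAF2, which fell by 1.58 and 0.49. The call of SDHAF2 was lost under the same 4 scalings as that of SLC25A1 (adjusted p up to 0.374) and in batch 1 alone. LIPT2 was below the filter, and PDK4, ME1, OGDHL and PPARGC1A were not analysed here.

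Of 16 genes of mitochondrial biogenesis and content 10 were lower, beside 24.3% of all tested genes, and 0 higher, beside 13% (median -0.79, against -0.03 for all tested genes). PHB1, a prohibitin of the inner membrane, had 13.1 ± 4.16 in SF153 libraries and 39.3 ± 4.82 in DMSO libraries, and HSPD1, the matrix chaperonin, 85.5 ± 14.2 with SF153 and 225 ± 14.3 with DMSO. VDAC1, the outer membrane channel, fell by 1.37. TFAM, which packages mitochondrial DNA, fell by 1.29. The 6 genes of this list not called were POLRMT, TWNK, POLG, PPARGC1B, NRF1 and ESRRA, at 85.7% (NRF1) to 107% (PPARGC1B) of the DMSO mean. The 7 lists around the members together held 64 tested genes, of which 32 were lower, beside 24.3% of all tested genes, and 2 higher, beside 13%.

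Ratios of 2 genes within 1 library do not move with a single scaling factor per library, and 12 such ratios were compared. The ratio of IDH2 to IDH1 was 0.290, 0.243, 0.175 and 0.221 in SF153 libraries, against 1.45, 1.23, 1.24 and 1.21 in DMSO libraries. On the signal scale IDH2 thus stood below IDH1 in every SF153 library and above it in every DMSO library. The difference in mean log2 ratio was -2.49. The ratio of IDH2 to IDH3A was 0.500 ± 0.107 in SF153 libraries and 1.56 ± 0.253 in DMSO libraries (SD, n = 4 each), and that of SUCLG1 to SUCLA2, the ATP-forming beta subunit, 0.856 ± 0.156 with SF153 and 1.25 ± 0.162 with DMSO. These 3 ratios did not overlap between the groups and had the smallest p that 4 against 4 libraries allow (exact two-sided permutation test, p = 0.0286, 0.114 after Benjamini-Hochberg adjustment over the 12 ratios). None of the 12 passed after adjustment. Permuting within batches cannot go below 0.0556.

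The subunit ratio of IDH3A to IDH3B averaged 0.668 ± 0.133 in SF153 libraries and 0.914 ± 0.129 in DMSO libraries (exact permutation p = 0.0571), and that of MDH2 to MDH1 0.626 ± 0.137 with SF153 and 0.888 ± 0.0961 with DMSO (exact permutation p = 0.0571). Each pair of groups overlapped. The ratio of FH to MDH2 was 0.349 ± 0.119 in SF153 libraries and 0.236 ± 0.0264 in DMSO libraries, higher by 0.15 (log2) in batch 1 and by 0.87 in batch 2 (exact permutation p = 0.114 over both).

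**Figure D4:**
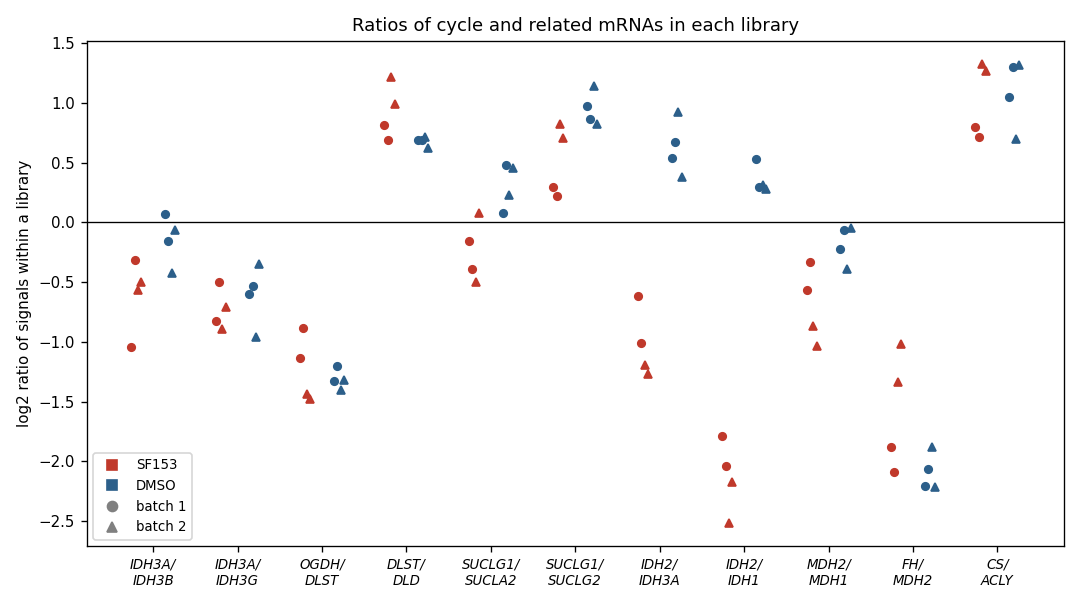
Log2 ratio of 2 genes within each library for 11 of the ratios, with SF153 libraries left of DMSO libraries. IDH2 to IDH1, IDH2 to IDH3A and SUCLG1 to SUCLA2 show groups that do not overlap.

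The difference of a gene varied with the length of its longest transcript in GENCODE release 29, so the members are set beside genes of like length. Of tested genes from 1000 to 2000 bases 33.6% were lower (median -0.14), and here IDH3B at 1545 bases had -0.03, SUCLG1 at 1475 bases -1.05 and FH at 1797 bases -0.79. From 2000 to 3000 bases 28.6% were lower (median -0.08), the bin of IDH2, DLST and MDH2. From 3000 to 5000 bases 26.5% were lower (median -0.08), the bin of CS, IDH3A and OGDH. IDH3B and SUCLG1, nearly equal in length, thus differed by about a full log2 unit.

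**Figure D5:**
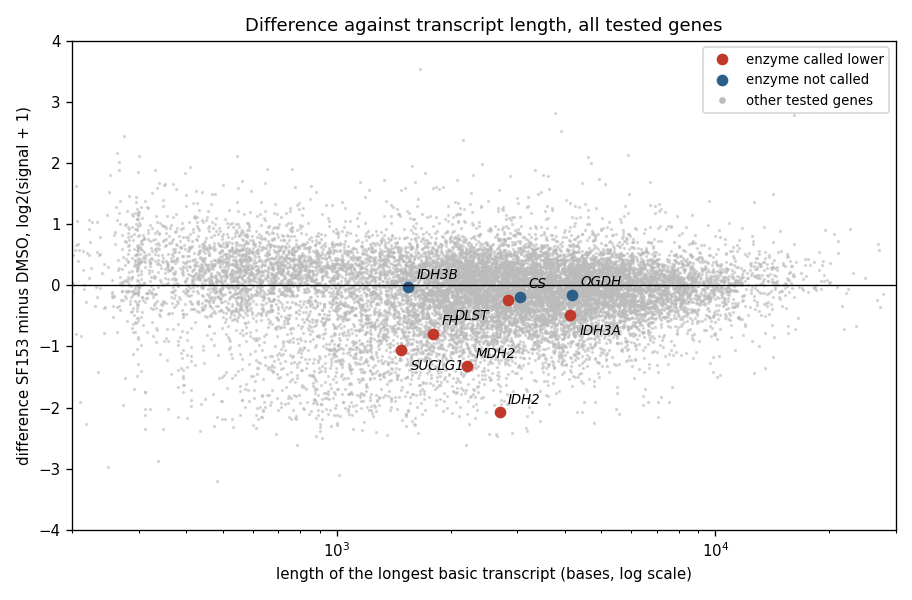
Log2 difference (SF153 over DMSO) of the tested genes against the length of their longest transcript in bases (log axis), with the 9 members marked in red where called lower and in blue where not called. A further 54 genes lie outside the axes. IDH2, MDH2, SUCLG1 and FH lie well below the medians of their bins given above, and IDH3B lies above that of its bin.

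The genes whose log2 signal over the 8 libraries was most like the mean of the standardized members were GHITM (Pearson r = 0.998), GMFG, SNHG29, FSCN1 and TBCA (r = 0.997 each). These r values are a description over 8 libraries that share the treatment contrast.

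In GRCh38 by GENCODE release 29, CS lies on the minus strand of chromosome 12 (56271699 to 56300392) and IDH2 on the minus strand of chromosome 15 (90083045 to 90102504). IDH3A lies on the plus strand of chromosome 15 (78131498 to 78171949) and IDH3B on the minus strand of chromosome 20 (2658395 to 2664219). OGDH lies on the plus strand of chromosome 7 (44606572 to 44709066), as does MDH2 (76048051 to 76067508), and DLST on the plus strand of chromosome 14 (74881891 to 74903745). SUCLG1 lies on the minus strand of chromosome 2 (84423523 to 84460045) and FH on the minus strand of chromosome 1 (241497603 to 241519761). Other genes overlap CS and IDH3A. ACSBG1 and CIB2 lie on the strand opposite to IDH3A, AC090260.1 on the same strand as IDH3A, and AC073896.1 on the same strand as CS. The strand setting of the counting was not given in the sources used here, and no such setting separates genes on the same strand. The values of CS and IDH3A are uncertain to that extent.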

How the data were processed

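RNA sequencing values of 8 NKM-1 libraries were analysed, 4 with SF153 and 4 with DMSO, grouped by the labels. The deposited values are a signal, of a type the authors' file labels call both CPM and TPM; the sums over 17912 genes, from 828381 to 1027119, are not those of plain TPM, and a scaling that would give them is not stated in the sources used here. The plan had assumed TPM, and the same test was applied. Ribosomal RNA was removed with RNase H, per the labels' protocols, and the second strand marked with dUTP. CASAVA 1.8.2, STAR, Salmon, edgeR and GRCh38 are named without roles, per the submitters' processing notes. Read depth is unknown, so no counting interval or floor is given.

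The differences are from limma 3.58.1 (R 4.3.3) with an intensity trend, on log2(signal + 1), over the 15542 genes whose mean signal reached 1, with Benjamini-Hochberg adjustment over all of them and a threshold of 0.05. On this scale the change of genes with low signal is understated. Percentages of DMSO are ratios of mean signal. The steps were tested on simulated data. Ratios used exact permutation tests (scipy 1.17.1, Python 3.11.15). Lengths and positions came from GENCODE release 29, where 17235 of 17912 identifiers matched, and promoters from RefSeq.

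The labels give each library a batch number, and libraries of both treatments were grouped by it. The number itself does not say that libraries sharing it were handled together. As a check, the batch differences of SF153 and DMSO libraries correlated with r = 0.0669 over genes, so they were hardly alike. The blocked result is given where it changed a call. Alternatives were other pseudocounts, filters, scalings and variance settings, the replicate block, averaging within treatment and batch, each library left out, each batch alone and RN7SK removed.

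The members and lists were chosen with earlier results of these data known. Named were every member, up to 4 called genes with the largest difference of each list, every gene of a ratio, and the 5 genes, of those whose mean signal reached 5, most like the members. SDHA, PDHA1, GABPA, NRF1, ESRRA and the single markers in the report, and D2HGDH, PCK2 and ME3 in the closing section, were added after their values were seen. So were POLRMT, TWNK, POLG and PPARGC1B. Results of some genes that enter the list counts are not reported here.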

Additional observations from a re-analysis of the deposited data

Results flagged for a closer look

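In 98 groups of 4 libraries checked, 3 had a library far from the other 3 of its group by Dixon's criterion (gap over range), where chance gives about 1 in 20. MDH2 had its lowest DMSO signal in DMSO 2.1, 104.6, with a gap of 0.918 of the range to the next library, and it is still above every SF153 library. SDHC had its lowest SF153 signal in SF153 2.2, 15.6 (gap 0.896 of the range). The ratio of IDH2 to IDH1 was highest among DMSO libraries in DMSO 1.1, 1.45 (gap 0.876 of the range).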

How the results depend on the processing

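The members called lower, 6 as reported, numbered 4 to 7 under the alternatives and 5 to 6 with a library left out. IDH2, MDH2, SUCLG1 and FH were called lower in each. With the batch as a replicate block 7 members were lower, CS being added, and this block changed no other member's call. Members called higher were 0, except 1 (IDH3B) without mitochondrial and small RNA genes. The 7 lists had 32 genes lower as reported and 23 to 32 under alternatives. Their genes higher, 2 as reported, were 6 after quantile normalization, 11 without mitochondrial and small RNA genes and 6 after removal of the trend on length and level. They were 5 with RN7SK removed, and 0 after averaging libraries and in batch 1 or batch 2 alone. Beside these, 13% of all tested genes were higher as reported and 35% without mitochondrial and small RNA genes. Over all tested genes 2015 were higher as reported, 3225 after quantile normalization, 2735 after trend removal and 3306 with RN7SK removed. After averaging 910 were higher, in batch 1 alone 861 and in batch 2 alone 859. Ratios that did not overlap, 3 as reported, numbered 3 to 8 with a library left out (8 without SF153 1.2, 5 without DMSO 2.1). Log2 differences turned positive as follows. CS had 0.0153 after quantile normalization, 0.15 without mitochondrial and small RNA genes and 0.0461 after trend removal. IDH3B had 0.0526 with median-of-ratios factors, 0.15 after quantile normalization, 0.31 without mitochondrial and small RNA genes, 0.24 after trend removal, 0.0692 in batch 1 alone, 0.15 with RN7SK removed, and -0.137 to 0.0471 with a library left out (0.00208 without SF153 1.2). OGDH had 0.0525 after quantile normalization, 0.18 without mitochondrial and small RNA genes and 0.0208 with RN7SK removed, and DLST 0.10 without mitochondrial and small RNA genes. ACLY had 0.0584 after quantile normalization, 0.21 without mitochondrial and small RNA genes, 0.17 in batch 1 alone and 0.0518 with RN7SK removed. The ratio of OGDH to DLST had -0.0349 without SF153 1.2, and that of CS to ACLY, which was -0.06, had 0.0158 without SF153 1.1, 0.042 without SF153 1.2, 0.00814 without DMSO 1.2 and 0.0144 without DMSO 2.2. Calls of GOT1, MPC1, SDHAF2, SLC25A1 and SUCLA2 were each lost without at least 1 of the libraries. Of all tested genes, 34.8% of the calls were higher as deposited, against 44.8% with median-of-ratios factors, 53.3% after quantile normalization, 48.1% after trend removal, 54.9% with RN7SK removed and 71.7% without mitochondrial and small RNA genes. Calls over all genes, 5785 as reported, numbered 3429 after averaging libraries, 3131 in batch 1 alone and 3315 in batch 2 alone. For these changes the cause was not tested. RN7SK removal and the single batches were chosen after seeing the data. Unknown read depth limits what can be said of low signals.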

Other observations

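D2HGDH, which oxidizes the D form of 2-hydroxyglutarate, had 47.4 ± 11.2 in SF153 libraries and 34.3 ± 7.75 in DMSO libraries (SD, n = 4 each; 0.46 on the log2 scale, limma adjusted p = 0.102), and the groups overlapped. PCK2, the mitochondrial phosphoenolpyruvate carboxykinase, and ME3, a mitochondrial malic enzyme, differed by 0.01 and 0.10 (log2) and did not pass.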
